A study of Saccharomyces cerevisiae with 16 samples.

Results

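The YAP genes of budding yeast encode 8 transcription factors that resemble mammalian AP-1: YAP1 (YML007W), CAD1 (also YAP2, YDR423C), YAP3 (YHL009C), CIN5 (also YAP4, YOR028C), YAP5 (YIR018W), YAP6 (YDR259C), YAP7 (YOL028C) and ARR1 (also YAP8, YPR199C). They were taken as a gene family by name and matched to the arrays by ORF, and all 8 were among the 6046 genes tested, of 6225 on the array. CIN5 and YAP6, a pair of duplicate genes, were set against the other 6. Expression was followed in a Saccharomyces cerevisiae strain of S288C background in which ROF1, which codes for a likely WOPR-type transcription factor, is transcribed from the synthetic Z3 promoter. The activator of that promoter, Z3EV, is made constitutively from the ACT1 promoter in this strain collection and is switched on by β-estradiol. Duplicate chemostat cultures, A and B, were grown under phosphate limitation. They were sampled at 0 min and at 5, 10, 15, 20, 30, 45 and 90 min after 1 µM β-estradiol was added. There was 1 array per culture and time, 16 arrays in all. The groups are these 8 times, with n = 2 cultures each. Every sample carried the same construct, including those at 0 min, and cells without it were not followed here, so responses to the inducer and to ROF1 cannot be told apart.

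Yap proteins bind DNA through a basic region and pair through a leucine zipper, the fold known as bZIP. Yap1 is the main activator of the oxidative stress response and gathers in the nucleus when it is oxidised. Cad1 has been tied to cadmium and iron stress, Arr1 switches on arsenic detoxification, Yap5 activates genes that cope with excess iron, and Yap7 represses the flavohemoglobin gene YHB1. Cin5 and Yap6 are best known from tolerance of salt and osmotic stress and can associate with the corepressor Tup1-Cyc8. Yap3 is the least characterised of the family.

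Each array compared the sample, labelled with Cy5 (red), with RNA of strain DBY12001, labelled with Cy3 (green), and the measured value is the log2 ratio of red over green. Intensities under 50 were set to 50 before the ratio was taken. A change is the ratio at a later time minus that at 0 min, and its adjusted p comes from limma, a linear model fitted to all genes with culture as a block. A gene is said to have passed the test when that p, adjusted over all 6046 genes, was under 0.05. The median red signal of an array ran from 930.5 to 1417, and the lowest belonged to 10 min in culture B. In that culture the array at 15 min had the most outlier spots, 183 against 3 to 60 elsewhere. The induced gene behaved as labelled: ROF1 red signal lay between 518.6 and 1764 at the later times, against 11.5 and 17.0 at 0 min.

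All 8 YAP probes gave signal above the floor of 50, the lowest being 54.8 in green for YAP7 at 10 min in culture B. Each was also flagged above background in both colours on all 16 arrays. That flag alone says little, since ROF1 carried it at 0 min with red signal of 11.5 and 17.0. The 2 spots of a YAP probe differed by a median of 0.10 and by at most 0.42 on the log2 scale, with the widest gap at YAP5.

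CIN5 mRNA rose within 5 min and then fell below its starting level, while YAP6 mRNA fell without a rise that passed the test. These genes are among the transcription factor genes that the study singled out on these same arrays, so their direction is not independent evidence. At 90 min CIN5 was 2.85-fold lower and YAP6 4.88-fold lower than at 0 min. YAP5 fell slightly at 90 min, and YAP1, CAD1, YAP3, YAP7 and ARR1 passed the test at no time.

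In the moderated F test, which asks for change at any time, 2 of the 8 members passed, CIN5 (adjusted p = 4.5e-07) and YAP6 (adjusted p = 6.01e-07), while 50.6% of all tested genes did. Of the other members, YAP5 had an adjusted p of 0.0812, ARR1 0.0874, YAP3 0.128, CAD1 0.474, YAP1 0.76 and YAP7 0.824.

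**Figure D1:**
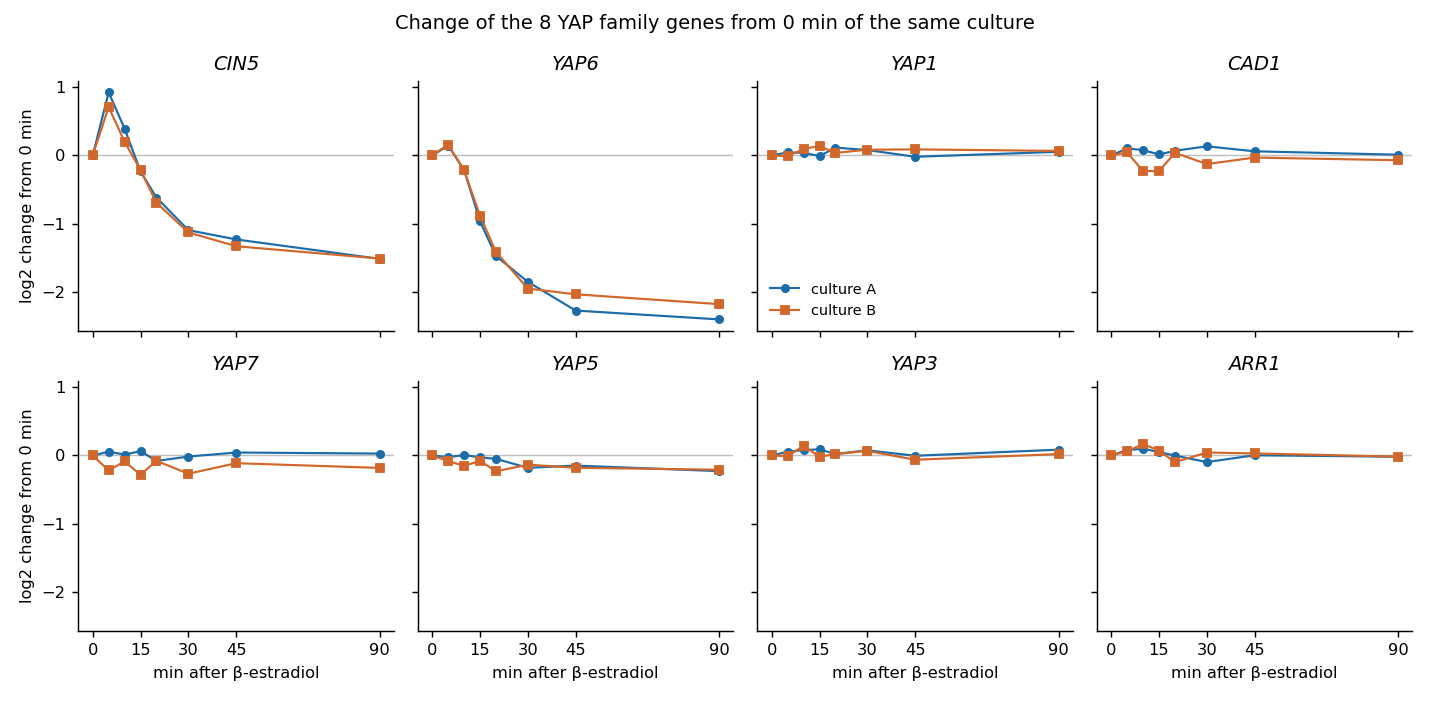
Log2 change of each YAP gene from 0 min of the same culture (y axis) against min after β-estradiol (x axis), with a line for culture A and one for culture B. CIN5 climbs by 0.92 in culture A and 0.71 in culture B at 5 min and ends at -1.51 in both, YAP6 ends at -2.40 and -2.17, and the other 6 genes stay between -0.28 and 0.17 on every array.

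The log2 ratios of CIN5 in culture A were 0.29, 1.21, 0.68, 0.06, -0.33, -0.80, -0.94 and -1.22 at 0, 5, 10, 15, 20, 30, 45 and 90 min. In culture B they were 0.41, 1.12, 0.61, 0.19, -0.28, -0.72, -0.92 and -1.10. Both arrays at 5 and at 10 min lay above both at 0 min, and from 15 min on both lay below them. Such separation was common: 29.0% of all genes lay above at 5 min and 29.1% at 10 min, and 25.1%, 25.3%, 22.6%, 26.6% and 33.2% lay below at 15, 20, 30, 45 and 90 min. In both cultures CIN5 peaked at 5 min and declined at every later sampling.

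At 5 min CIN5 was higher by 0.82 ± 0.06 (SE, n = 2 cultures; adjusted p = 8.03e-05), a 1.76-fold rise, with a 95% interval of 0.68 to 0.95. It was the only member to pass the test at that time, when 10.1% of all genes passed in the same direction. Only 23 of the 6046 genes had a larger rise. The rise had shrunk to 0.30 by 10 min (adjusted p = 0.00859), where CIN5 was again the only member past the test and 11.6% of all genes were higher.

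The decline of CIN5 continued at each step that followed. Its ratio dropped by 0.52 between 5 and 10 min (adjusted p = 0.0091), by 0.52 between 10 and 15 min (adjusted p = 0.00898), by 0.43 between 15 and 20 min (adjusted p = 0.0127) and by 0.46 between 20 and 30 min (adjusted p = 0.0104). The shares of all genes called lower over these 4 steps were 1.34%, 0.463%, 2.80% and 2.02%. The step to 45 min was -0.17 and did not pass (adjusted p = 0.2), and that to 90 min was -0.23 (adjusted p = 0.0339), when 8.37% of all genes were lower than at 45 min.

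Relative to 0 min, the change of CIN5 was -0.22 by 15 min (adjusted p = 0.0359) and -0.65 by 20 min (adjusted p = 0.000495). It reached -1.11 by 30 min (adjusted p = 1.87e-05) and -1.28 by 45 min (adjusted p = 4.88e-06). At 90 min the change was -1.51 (95% interval -1.65 to -1.37; adjusted p = 7.93e-07), and 28 genes had fallen further. From its crest at 5 min to 90 min, CIN5 fell by 2.33 on the log2 scale (adjusted p = 4.91e-08), or 5.01-fold, and 22.1% of all genes were lower over that span. The call of CIN5 at 10 min was lost without culture A at 0 min (adjusted p = 0.0647) or at 10 min (adjusted p = 0.0558). That at 15 min was lost without either array at 0, 15, 20 or 45 min, with adjusted p up to 0.199 (culture B at 0 min).

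YAP6 took a different course over the first 10 min. Its log2 ratios were -0.24, -0.09, -0.45, -1.20, -1.71, -2.08, -2.50 and -2.63 in culture A at 0, 5, 10, 15, 20, 30, 45 and 90 min. In culture B they were -0.45, -0.29, -0.66, -1.32, -1.86, -2.39, -2.48 and -2.62. The arrays at 5 and 10 min overlapped those at 0 min, and from 15 min on both arrays lay below both at 0 min.

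The change of YAP6 at 5 min was 0.15 ± 0.08 (SE), made up of 0.14 in A and 0.16 in B, and did not pass the test (adjusted p = 0.245). At 10 min it was -0.21 (adjusted p = 0.0829). A fall was then called throughout, of -0.92 by 15 min (adjusted p = 0.000233), -1.44 by 20 min (adjusted p = 4e-05), -1.90 by 30 min (adjusted p = 5.15e-06) and -2.15 by 45 min (adjusted p = 1.14e-06). At 90 min YAP6 had changed by -2.29 (95% interval -2.47 to -2.11; adjusted p = 3.27e-07).

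Among all tested genes YAP6 stood at the lower extreme early on. It had the 3rd lowest change at 15 min, the lowest at both 20 and 30 min, the 4th lowest at 45 min and the 11th lowest at 90 min. Its step from 10 to 15 min, -0.71 (adjusted p = 0.00816), was the lowest of any gene over that interval. The steps to 45 min (-0.25, adjusted p = 0.147) and to 90 min (-0.14, adjusted p = 0.286) did not pass the test.

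At 15 min CIN5 and YAP6 were the 2 members that were lower, when 9.84% of all genes were. They were also the members lower at 20 min (7.56% of all genes), 30 min (5.94%) and 45 min (7.96%), and with YAP5 made 3 at 90 min (20.0%). By the stricter rule that the fall also be at least 2-fold, YAP6 alone was called at 20 min, with 0.0827% of all genes, and both were called at 30 min (0.265%), 45 min (0.496%) and 90 min (0.992%). In the mean of the 7 later times both were lower, CIN5 by -0.52 (adjusted p = 0.000172) and YAP6 by -1.25 (adjusted p = 7.46e-06), beside 12.4% of all genes.

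**Figure D2:**
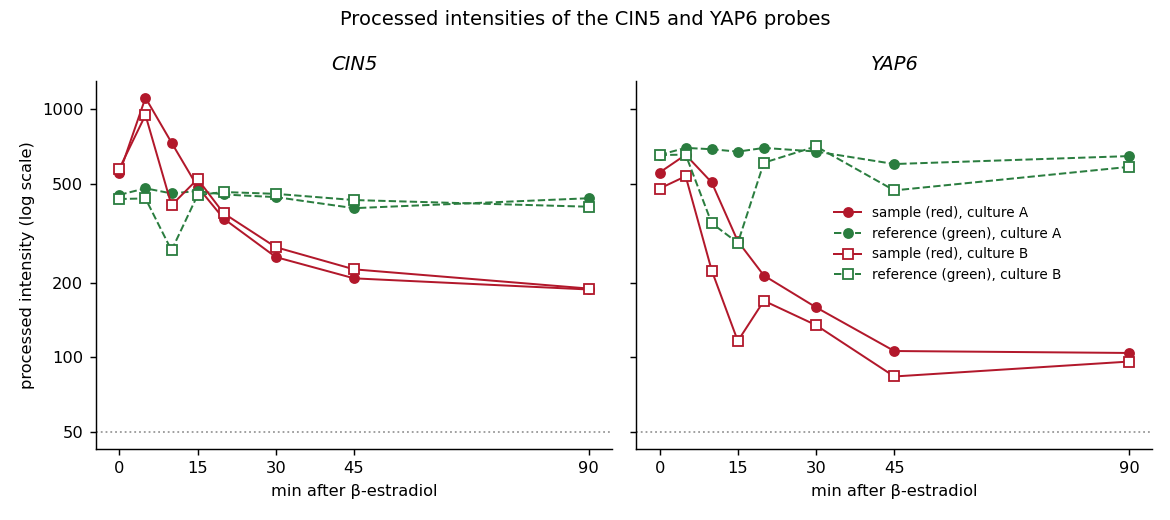
Processed intensity of the CIN5 and YAP6 probes (y axis, log scale) against min after β-estradiol (x axis), with the sample in red (solid), the reference in green (dashed) and the floor of 50 as a dotted line. Red signal of CIN5 ends at 187.5 in A and 189.1 in B and that of YAP6 at 104.1 and 96.1, while green signal is lowest in culture B, at 10 min for CIN5 and at 15 min for YAP6.

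The fall lay in the red channel, that of the sample. CIN5 red signal at 5 min was 1109 in culture A, against 550.0 at 0 min, and in culture B it was 945.0, against 574.9 at 0 min. By 90 min the cultures had reached 187.5 (A) and 189.1 (B). The green signal of CIN5 stayed between 398.5 and 479 apart from 269.5 at 10 min in culture B.

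YAP6 red signal was 104.1 at 90 min in culture A, against 554.5 at 0 min, and 96.1 in culture B, against 477.9 at 0 min. Its green signal lay between 469.8 and 706.6 on 14 arrays and was 346.5 at 10 min and 288.8 at 15 min in culture B. Both colours of this probe were therefore dim on these arrays of culture B, and the ratios there were -0.66 and -1.32, beside -0.45 and -1.20 in culture A. Without these arrays the change of YAP6 at 15 min still passed the test (-0.93, adjusted p = 0.0069), whereas that of CIN5 was -0.27 with an adjusted p of 0.0624.

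The other members, YAP1, CAD1, YAP3, YAP5, YAP7 and ARR1, were tested at 7 later times each, 42 tests in all. Of these, 1 passed after adjustment over all genes, YAP5 at 90 min, when 20.0% of all genes were lower and 20.7% higher. An unadjusted p under 0.05 was reached in 6, of which 4 belonged to YAP5. The share of all genes at that threshold was not counted. The 95% intervals of all 42 changes lay between -0.34 and 0.26, so changes of the size of those of CIN5 and YAP6 at 90 min lie outside all of them. Apart from YAP5, the largest fitted change in either direction was 0.14.

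YAP5, the iron-responsive member, had log2 ratios of -0.22, -0.25, -0.22, -0.25, -0.27, -0.40, -0.37 and -0.45 in culture A over the 8 times. Culture B gave -0.17, -0.25, -0.32, -0.25, -0.40, -0.31, -0.35 and -0.38. Both arrays at 90 min lay below both at 0 min, and the change there was -0.22 (95% interval -0.34 to -0.09; adjusted p = 0.0138), beside -2.29 for YAP6. This call was kept in 25 of 29 alternative fits. It did not hold without culture A at 90 min (adjusted p = 0.0993) or without culture B at 0 min (adjusted p = 0.0851). With the red channel alone the change was -0.11 and did not pass the test.

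YAP1, the oxidative stress regulator, held log2 ratios of -0.01, 0.03, 0.03, -0.02, 0.10, 0.07, -0.03 and 0.04 in culture A. In culture B the series read -0.04, -0.05, 0.05, 0.10, 0.00, 0.04, 0.05 and 0.03. Its change at 90 min was 0.06 (95% interval -0.06 to 0.18; adjusted p = 0.403), with ratios close to 0 throughout.

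CAD1, the closest relative of YAP1, ran lower in the strain than in the reference on every array. Its ratios were -0.30, -0.20, -0.22, -0.29, -0.23, -0.17, -0.24 and -0.29 in culture A and -0.24, -0.19, -0.47, -0.47, -0.20, -0.36, -0.27 and -0.31 in culture B. The lowest values were those at 10 and 15 min in culture B, the arrays that stood apart in signal or outlier spots, and their part in the dip was not tested. At 90 min the change of CAD1 was -0.03 (95% interval -0.21 to 0.15; adjusted p = 0.837).

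YAP3 had ratios from 0.06 to 0.26 over the 16 arrays and a change of 0.05 at 90 min (95% interval -0.03 to 0.14; adjusted p = 0.298). YAP7, the repressor of YHB1 and the dimmest of the probes at 54.8 to 151.8 over both colours, had ratios from -0.05 to 0.23 and a change of -0.08 at 90 min (95% interval -0.27 to 0.12; adjusted p = 0.526). ARR1, the arsenic regulator, had ratios from -0.12 to 0.14, with its highest values at 10 min (0.09 in culture A and 0.14 in culture B). Its change at 90 min was -0.02 (95% interval -0.12 to 0.09; adjusted p = 0.834). With single arrays left out, YAP3 passed at 10 min in 3 of 16 fits (lowest adjusted p = 0.0197, without culture A at 10 min) and ARR1 at 10 min in 4 (lowest adjusted p = 0.0269, without either array at 30 min).

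At 90 min both arrays lay below both at 0 min for 4 members, CIN5, YAP5, YAP6 and ARR1, and for 33.2% of all genes. They lay above for YAP1 and YAP3, and for 35.8% of all genes.

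**Figure D3:**
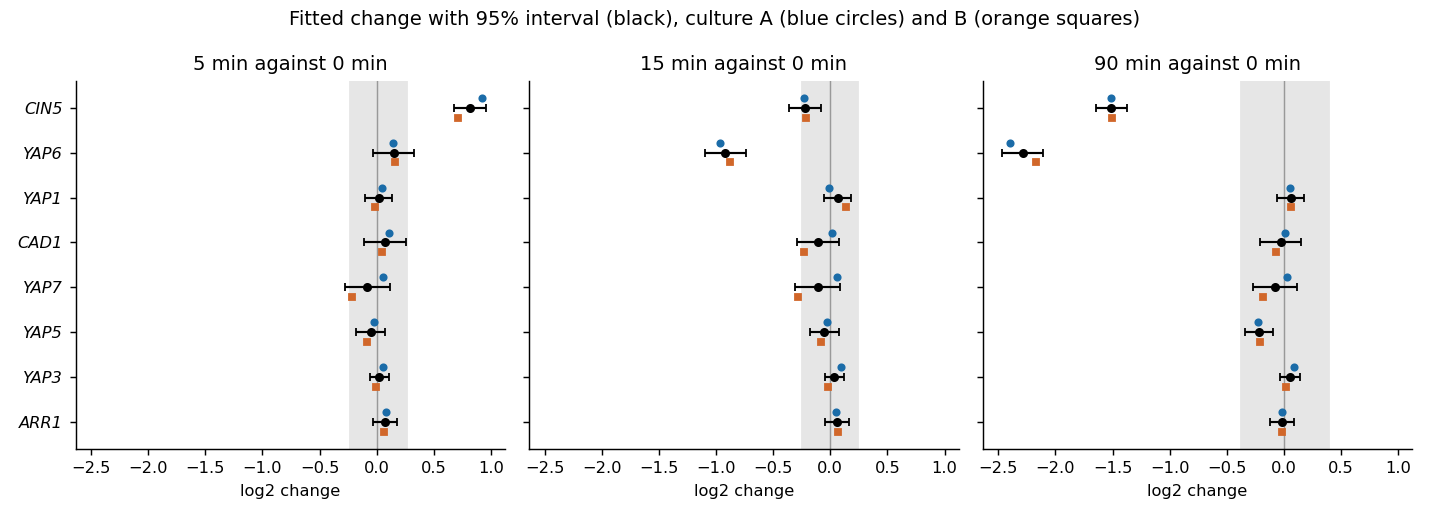
Fitted log2 change of each YAP gene against 0 min (x axis) at 5, 15 and 90 min, with its 95% interval in black, culture A as circles and culture B as squares; the grey band holds the middle 90% of all tested genes. At 90 min the band runs from -0.38 to 0.39, with CIN5 at -1.51 and YAP6 at -2.29 far to its left and the other 6 genes inside it.

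CIN5 and YAP6 arose from the duplication of the whole genome in an ancestor of budding yeast, as did YAP1 and CAD1, and YAP5 and YAP7. Whether the genes of a pair changed unequally was tested on the difference of their log2 changes in the same limma fit, at the 7 later times and in their mean, with p-values adjusted over the 24 tests. The change of CIN5 was above that of YAP6 in all 8 of its tests. The difference was 0.66 at 5 min (adjusted p = 0.00025), 0.51 at 10 min (adjusted p = 0.00131), 0.70 at 15 min (adjusted p = 0.000209) and 0.79 at 20 min (adjusted p = 0.000116). At 30, 45 and 90 min it was 0.79, 0.87 and 0.78, each with an adjusted p of 0.000116.

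Most of the gap between CIN5 and YAP6 was thus present at 5 min. In culture A it was 0.89 at 90 min, against 0.78 at 5 min, and in culture B 0.67 at 90 min, against 0.55 at 5 min. The 95% interval at 90 min was 0.57 to 0.98. The values depend on how dim signals are treated. With the floor raised to 200, which lies above the red signal of both genes at 90 min, the difference passed in none of the 8 tests. It was then 0.66 at 5 min (adjusted p = 0.0519), 0.41 at 10 min (adjusted p = 0.236), 0.28 at 15 min (adjusted p = 0.419) and 0.66 at 20 min (adjusted p = 0.0519). For the later times it was 0.34 at 30 min (adjusted p = 0.329), -0.23 at 45 min (adjusted p = 0.443) and -0.082 at 90 min (adjusted p = 0.797). With normexp background correction and loess the difference at 90 min was 0.41 (adjusted p = 0.000294).

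The difference of YAP1 minus CAD1 lay between -0.06 and 0.17 over the times, with adjusted p from 0.452 to 0.896. That of YAP7 minus YAP5 lay between -0.06 and 0.14, with adjusted p from 0.582 to 0.896. At 90 min the 95% interval was -0.17 to 0.35 for YAP1 minus CAD1 and -0.13 to 0.42 for YAP7 minus YAP5. Differences within these intervals were not excluded with 2 cultures.

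**Figure D4:**
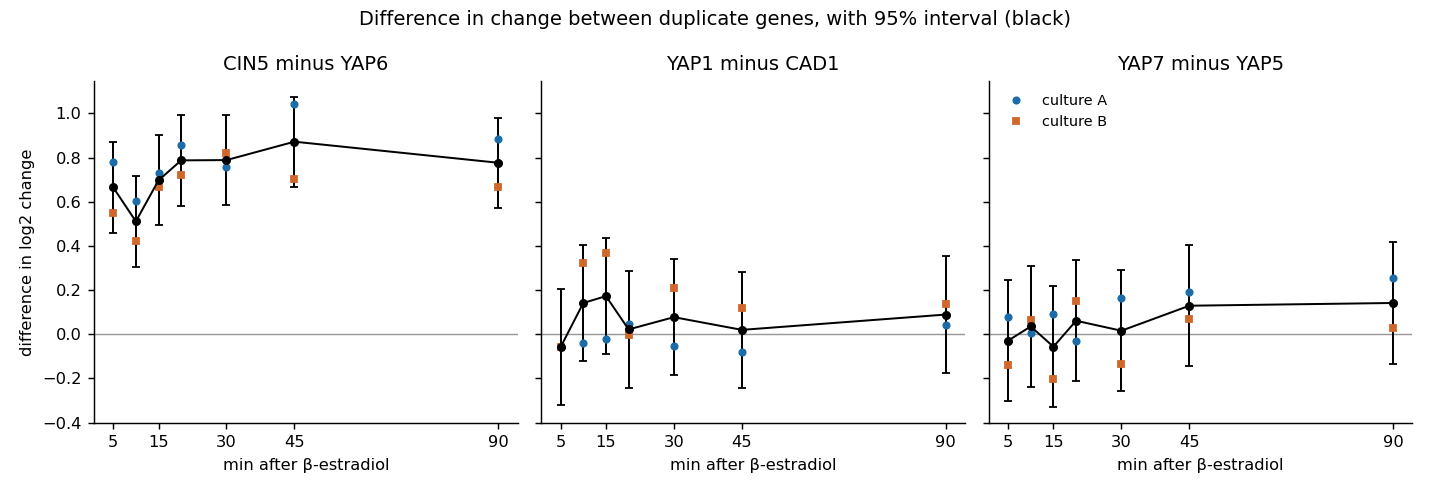
Difference in log2 change from 0 min between the genes of each pair (y axis) against min after β-estradiol (x axis), with 95% intervals in black and cultures A and B as coloured symbols. CIN5 minus YAP6 stays between 0.51 and 0.87, and the intervals of YAP1 minus CAD1 and YAP7 minus YAP5 include 0 at every time.

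The timing of the fall was read in each culture by linear interpolation. Measured from the level at 0 min, CIN5 reached the midpoint of its fall at 22.2 ± 1.07 min and YAP6 at 17.1 ± 0.263 min (SD, n = 2 cultures). Measured from the highest level of each gene, the midpoints came at 16.4 ± 0.803 min for CIN5 and 16.4 ± 0.292 min for YAP6. With the main processing the midpoints of the genes thus lay apart only when measured from 0 min. Over alternative processing and with arrays left out, midpoints from the highest level ran from 14.8 to 18.1 min for CIN5 and 13.8 to 17.0 min for YAP6. Those from 0 min ran from 20.7 to 23.8 min for CIN5 and 14.6 to 18.0 min for YAP6.

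YAP6 fell fastest between 10 and 15 min, at 0.141 per min on the log2 scale. CIN5 fell at 0.104 per min both from 5 to 10 min and from 10 to 15 min. By 20 min YAP6 had covered 63.0% of its change at 90 min and CIN5 43.3%, and by 45 min YAP6 had covered 94.0% and CIN5 84.6%.

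The ratio to the reference strain was also tested at 0 min, before any inducer was added. At 0 min CIN5 was higher than in DBY12001 by 0.35 (adjusted p = 0.000316) and YAP3 by 0.09 (adjusted p = 0.0242). YAP6 was lower, at -0.34 (adjusted p = 0.0102), as were CAD1 at -0.27 (adjusted p = 0.00655) and YAP5 at -0.20 (adjusted p = 0.00198). YAP7 (0.13), YAP1 (-0.03) and ARR1 (-0.02) did not pass the test. That is 5 of 8 members, beside 49.6% of all genes. The call of YAP3 was lost with a floor of 200 (adjusted p = 0.153) and with normexp and loess (0.03, adjusted p = 0.481), and that of YAP6 with a floor of 200 (adjusted p = 0.104). Since the dyes were never swapped a dye bias of a probe stays in these ratios, though not in a change between times.

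Likeness of pattern was described by Pearson's r of log2 ratios over the 16 arrays, with the mean of each culture subtracted. Arrays of 1 culture share their slide and their times, and many genes on these arrays changed with time. Over these arrays CIN5 and YAP6 had an r of 0.97. Among the 125 genes whose mean ratio spanned at least 1 over the times, the closest to CIN5 were YER053C-A, RSB1, MAL31, MAL11 and SKM1, with r from 0.98 to 0.99. RSB1, a transporter of sphingoid long-chain bases, shared the early rise, with a change of 0.80 at 5 min and -1.05 at 90 min.

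The genes closest to YAP6 were PHO23, MAL11, YJL218W, SKM1 and MAL31, with r from 0.97 to 0.99. PHO23, a subunit of the Rpd3L histone deacetylase, had a change of 0.17 at 5 min and -1.05 at 90 min. SKM1 (a protein kinase of the PAK family) and the maltose permease genes MAL11 and MAL31 stood on both lists. MAL11 and MAL31 had changes of -1.73 and -1.49 at 90 min, and whether their probes tell the MAL permease genes apart was not tested.

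The other members had looser matches among the 756 genes that spanned at least 0.5. The highest r was 0.91 for YAP5 (with DTD1, then RSM10 at 0.86), 0.78 for ARR1 (PNC1 and CBP4), 0.67 for YAP3 (MGL2 and YNL276C), 0.66 for CAD1 (DUS3, then RRP5 at 0.61), 0.56 for YAP1 (YML089C, then HSP12 at 0.53) and 0.40 for YAP7 (ATG15 and FRE5). These members spanned only 0.08 to 0.22 over the times themselves. Within the family, YAP5 had an r of 0.81 to YAP6 and 0.76 to CIN5, and ARR1 an r of 0.59 to CIN5 and 0.52 to YAP6.

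Of the 7 other bZIP genes listed, 5 were lower at 90 min, beside 20.0% of all genes, with a list median of -0.27 beside 0.00 for all genes. ACA1, an activator of the ATF/CREB type needed for growth on other carbon sources, was the lowest at -1.26 (adjusted p = 8.02e-06), with a change of 0.02 at 5 min. GCN4, the activator of amino acid biosynthesis, was at -0.63 (adjusted p = 3.02e-05), MET28, of the sulfur pathway, at -0.62 (adjusted p = 1.67e-05), HAC1, of the unfolded protein response, at -0.27 (adjusted p = 0.00446) and MET4 at -0.15 (adjusted p = 0.00839). CST6, a relative of ACA1, was higher at 5 min by 0.36 (adjusted p = 0.0012) and had a change of 0.12 at 90 min (adjusted p = 0.0689). The fitted falls of CIN5 and YAP6 at 90 min were larger than any of these, a difference that was not tested. ACA1 and GCN4 were also singled out by the study on these arrays.

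The 15 listed Yap1 targets, genes of thioredoxin, glutathione and drug export functions, included 6 that were higher and 3 that were lower at 90 min, beside 20.7% of all genes higher and 20.0% lower. The list median was 0.08. AHP1, a thiol peroxidase, was higher by 0.38 (adjusted p = 0.0141), FLR1, a multidrug transporter, by 0.31 (adjusted p = 0.00011) and OYE2, an NADPH oxidoreductase, by 0.31 (adjusted p = 0.00876). OYE3, its close relative, was lower at -0.44 (adjusted p = 0.000173). At 5 min 2 of the 15 were higher, beside 10.1% of all genes. They were SRX1, sulfiredoxin, by 0.41 (adjusted p = 0.0146) and TRX2, a thioredoxin, by 0.13 (adjusted p = 0.00976), and none was past the 2-fold rule at either time.

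Of the 3 genes of Yap1 redox control, HYR1, the peroxidase that oxidises Yap1, was higher by 0.17 at 10 min (adjusted p = 0.00349) and by 0.21 at 15 min (adjusted p = 0.00186) and was lower at 90 min, at -0.30 (adjusted p = 0.000102). YBP1 and CRM1 did not pass at 90 min. The call of the Yap1 target AHP1 was lost without culture A at 0 min (adjusted p = 0.102) or at 90 min (adjusted p = 0.0748), or without culture B at 90 min (adjusted p = 0.0575). Those of SRX1 and TRX2 at 5 min were lost without culture A at 0 min (adjusted p = 0.11 and 0.0698) or culture B at 5 min (adjusted p = 0.0852 and 0.0752), and that of SRX1 also without culture A at 5 min (adjusted p = 0.0693). YAP1 itself passed the test at none of the 7 later times.

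Of the 3 genes listed as Cin5 targets, 2 were higher at 5 min, when CIN5 was at its highest and 10.1% of all genes were higher. At 90 min 1 was higher and 1 lower, beside 20.7% and 20.0% of all genes. DCS2, known as a stress-induced gene, was higher by 0.71 at 5 min (adjusted p = 1.79e-05) and had a change of -0.04 at 90 min (adjusted p = 0.477). Its ratios in culture A were 0.00, 0.76, 0.77, 0.53, 0.32, 0.12, 0.11 and -0.02 over the 8 times. GCY1, a glycerol dehydrogenase, was higher by 0.47 at 5 min (adjusted p = 4.5e-05), by 0.64 at 10 min (adjusted p = 8.71e-06) and by 0.58 at 20 min (adjusted p = 2.85e-05), and was lower at 90 min, at -0.25 (adjusted p = 3e-04). GPP2, a glycerol phosphatase, had a change of 0.06 at 5 min (adjusted p = 0.139) and was higher by 0.52 at 90 min (adjusted p = 2.6e-06). All 3 were higher in the mean of later times, when CIN5 was lower. The share of all genes called higher in that mean is not given here, so the count of 3 cannot be set against it. By size, their changes in that mean ran from 0.20 to 0.36. All 3 thus lay above the middle 90% of all tested genes, which ended at 0.19.

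Of the 5 listed partners and upstream factors of Cin5 and Yap6, 2 were higher and 1 was lower at 90 min, beside 20.7% of all genes higher and 20.0% lower. MSN4 and MSN2, general stress activators, were higher at 90 min by 0.31 (adjusted p = 0.00502) and 0.25 (adjusted p = 0.0325), and HOG1, the osmotic stress kinase, was lower at -0.15 (adjusted p = 0.0119). The call of HOG1 was lost without culture A at 0 min (adjusted p = 0.0808) or culture B at 90 min (adjusted p = 0.0839). The corepressor genes TUP1 and CYC8 did not pass. MSN2 lost its call when either array at 0 or 90 min was left out (adjusted p from 0.108 to 0.13).

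YHB1, the flavohemoglobin gene that Yap7 represses, was lower at every time from 10 min on, while YAP7 passed the test at none. Its log2 ratio was -0.31 at 90 min in culture A, against 0.33 at 0 min, and -0.30 in culture B, against 0.47 at 0 min. The fitted change was -0.70 (adjusted p = 3.43e-05). None of the 3 listed Yap5 targets, CCC1, GRX4 and TYW1, passed at 90 min, when YAP5 was lower, although TYW1 was lower at 10 min by -0.26 (adjusted p = 0.0118). The Arr1 target ARR2 was lower at 20 min, at -0.15 (adjusted p = 0.0422), and at 30 min, at -0.16 (adjusted p = 0.044), and had a change of -0.06 at 90 min (adjusted p = 0.293). ARR3, the arsenite exporter gene, stayed under the floor in both colours on all 16 arrays, and FRM2, listed for Cad1, had a floored log2 ratio of 0 on 13 of them, so no order of their levels over time could be read.

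**Figure D5:**
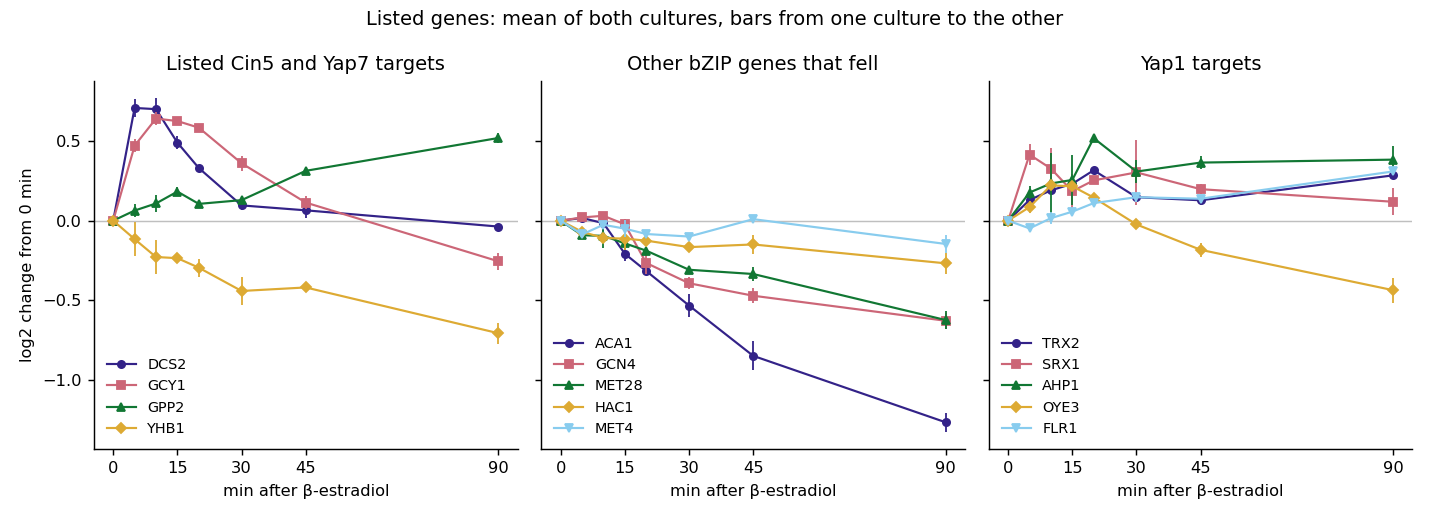
Log2 change from 0 min (y axis) against min after β-estradiol (x axis) for listed Cin5 and Yap7 targets, other bZIP genes that fell, and Yap1 targets, with points at the mean of both cultures and bars from one culture to the other. DCS2 and GCY1 peak at 5 and 10 min, with changes of 0.71 and 0.64, and ACA1 falls to -1.26 at 90 min.

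The nearest genes to CIN5 and YAP6 on the chromosome included none that passed the test as lower at 90 min. Beside CIN5, STI1 had a change of 0.11 at 90 min (adjusted p = 0.335) and YOR029W of -0.12 (adjusted p = 0.391). Beside YAP6, HSP78, a mitochondrial chaperone gene, was higher by 0.50 (adjusted p = 2.44e-05) and SWM1 had a change of 0.01 (adjusted p = 0.909). Of the tested neighbours of the other members, MET28 beside YAP5 was lower at -0.62. SGE1, a drug exporter gene beside ARR1, was lower at -0.74 (adjusted p = 2.39e-06) while ARR1 was at -0.02. GIS4 beside YAP1 was lower at -0.13 (adjusted p = 0.0173). SIP1 and DYN2 beside CAD1 and ETP1 beside YAP3 were higher. Among all genes, 20.0% were lower and 20.7% higher at 90 min.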

How the data were processed

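Total RNA of each culture and time was hybridised with reference RNA on a two-colour Agilent array. The authors extracted spots with Agilent Feature Extraction 12.0.1.1, which, per the file headers, subtracted background and normalized the dyes to give a processed intensity per colour. The deposited log2 ratios, taken by the authors after flooring at 50, equalled those recomputed from these intensities (0 of 12512 spots differed by over 1e-04). Outlier spots were left out, 2 spots per probe were averaged, and for 29 genes with several probes the brightest in red was used. Genes well above background in red on at least 2 arrays were kept.

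The fit was made in R 4.3.3 with limma 3.58.1 (lmFit, eBayes) on 16 arrays, with a factor for time and a block for culture (7 residual degrees of freedom), and Benjamini-Hochberg adjustment. It was tested on simulated data with known changes. Culture pairs the samples by design, since each was followed through all times. Over 28 pairs of times, the correlation of the difference between cultures had a median of 0.148 (-0.046 to 0.402). Each culture had its own slide, so the block is also the slide. P-values of changes measure how the 2 cultures departed from a shared time course, after a constant offset between them was removed. That spread was pooled over all times, and the number of arrays limits precision. The test against the reference at 0 min was made without the block.

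Members, lists and tests were chosen with earlier results of these data known. Of each list, genes past the 2-fold rule and the 4 with the largest change at 90 min were named. MET4, CST6, TRX2, SRX1 and the neighbouring genes were named after their values were seen. Names and neighbours came from RefSeq (assembly R64). The alternatives were the deposited ratios, normexp with loess, a floor of 200 or none at all, a strict filter on dim probes or none, median centring, red alone, no block, an intensity trend, a spline, single spots, and each array or culture left out. Promoter motifs were not analysed here. Figures were drawn with matplotlib.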

Additional observations from a re-analysis of the deposited data

How the results depend on the processing

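Over the alternatives CIN5 kept its direction and side of the threshold in 244 of 263 values and YAP6 in 259 of 263, and none turned its direction. At 90 min CIN5 ranged from -1.62 to -1.18 and YAP6 from -2.38 to -1.27, the smallest fall of YAP6 being that with a floor of 200, which cuts off its red signal. With that floor, CIN5 minus YAP6 passed in none of its 8 tests and was -0.23 at 45 min, -0.082 at 90 min and, averaged over later times, 0.29 (adjusted p = 0.256), and 0 members passed the test at 15 min. With red alone TRX2 was at -0.018 at 5 min, and 0 members passed at 10 min, 1 at 15 min and 1 at 20 min. The strict filter gave 2 members at 10 min (YAP6, adjusted p = 0.0336). Spot 1 alone, spot 2 alone, and leaving out the arrays at 10 and 15 min of culture B (chosen after seeing the data) each gave 1 member at 15 min. Spot 2 alone gave 4 at 30 min and 4 in the F test. The members it added at 30 min were YAP5 at -0.30 (adjusted p = 0.0241) and YAP7 at -0.28 (adjusted p = 0.0363). With spot 1 alone their changes at 30 min were -0.0155 and 0.0004. Leaving out 1 array at a time gave 0 to 2 members at 10 min, 1 to 2 at 15 min, 2 to 3 in the mean of later times and 2 to 4 in the F test. The share of all genes called was not counted under each alternative, so these counts of members cannot be set against it. In culture B alone the mean of later times was -0.57 for CIN5 and -1.21 for YAP6 (adjusted p = 1 each), and in culture A alone -0.48 (adjusted p = 0.981) and -1.29 (adjusted p = 0.836), with 0 members past the test, since a single array at 0 min was then set against the spread over times. Without the replicate block, CIN5 at 90 min had an adjusted p of 3.17e-07, YAP6 1.32e-06 and their difference 0.78 with 0.0033, and the block changed no call of CIN5 or YAP6. The cause of the other changes was not tested. Dim signal limits YAP6 most, with red at 83.7 to 106.0 from 45 min on.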
